A study of Caenorhabditis elegans with 2 samples.

Results

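Cuticle collagen genes of the col family were followed across the arrays of a study of Caenorhabditis elegans and single-walled carbon nanotubes. The members were chosen by name, as the genes whose symbol begins with col- and that have at least 1 probe set assigned to them alone, and this gave 128 genes with 144 probe sets out of 17118 genes with such a probe set. The a-SWCNT array held RNA of whole worms grown with 500 μg/mL of a-SWCNT, named by the labels as amide single-walled carbon nanotubes. The control array held RNA of whole worms grown without them. Worms of both groups were wild-type N2, were kept for 48 hr at 22 °C from the synchronised L1 stage, and are labelled as L4 larvae, which precede the adult. The stock from which they came was maintained at 13 °C on plates with E. coli OP50. With 1 array per group, replicate error is unknown and no p-value is given, and each difference is one between these 2 arrays.

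The cuticle of the worm is an extracellular coat that the hypodermis, the skin of the animal, builds anew at each moult. Its main components are small collagens, secreted proteins with Gly-X-Y repeats that assemble as trimers and are cross-linked in the matrix. Their genes are switched on in pulses within each moulting cycle, and some are used in the cuticle of a particular stage. Most col genes are known only as members of this structural family, and a role is given below for those with one established in C. elegans.

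As deposited, the 2% trimmed mean of the signal was 84.3 on the a-SWCNT array and 211 on the control array. The a-SWCNT signals were therefore multiplied by 2.50, and signals quoted below are intensities on that common scale. A probe set was called measured where it reached 56.7, the median signal of worm probe sets over both arrays, on at least 1 array. Lower signals were set to this floor, and ratios are given as log2 of a-SWCNT over control. For a gene with several probe sets, the log2 ratios of the measured ones were averaged. The error inside an array can be judged from genes with a pair of measured probe sets, whose ratios should be equal. Over 1625 such genes the ratios lay apart by a median of 0.42, with a 95th percentile of 1.37. In whole worms, fewer hypodermal cells and less RNA per cell cannot be told apart.

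Of the 128 col genes, 103 were measured, 101 of them on both arrays and 2 on 1 array. The other 25 were below the floor on both, with signals of at most 48.4 on the a-SWCNT array and 44.0 on the control array. The measured genes were on balance lower on the a-SWCNT array, with a median log2 ratio of -0.34 (interval over genes -0.45 to -0.12) beside -0.02 for all 9382 measured genes. Below 0 lay 68 of the 103, or 66.0%, beside 52.2% of all measured genes. At least 2-fold lower were 12 col genes, or 11.7%, beside 2.88% of all genes, and at least 2-fold higher were 2, or 1.94%, beside 1.42%. The middle 50% of the col genes lay between -0.67 and 0.11, so most of them differed by less than the 95th percentile of the difference between probe sets of 1 gene. The interval is a 95% interval of the median that takes the genes as independent units, and it holds no error between cultures.

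**Figure D1:**
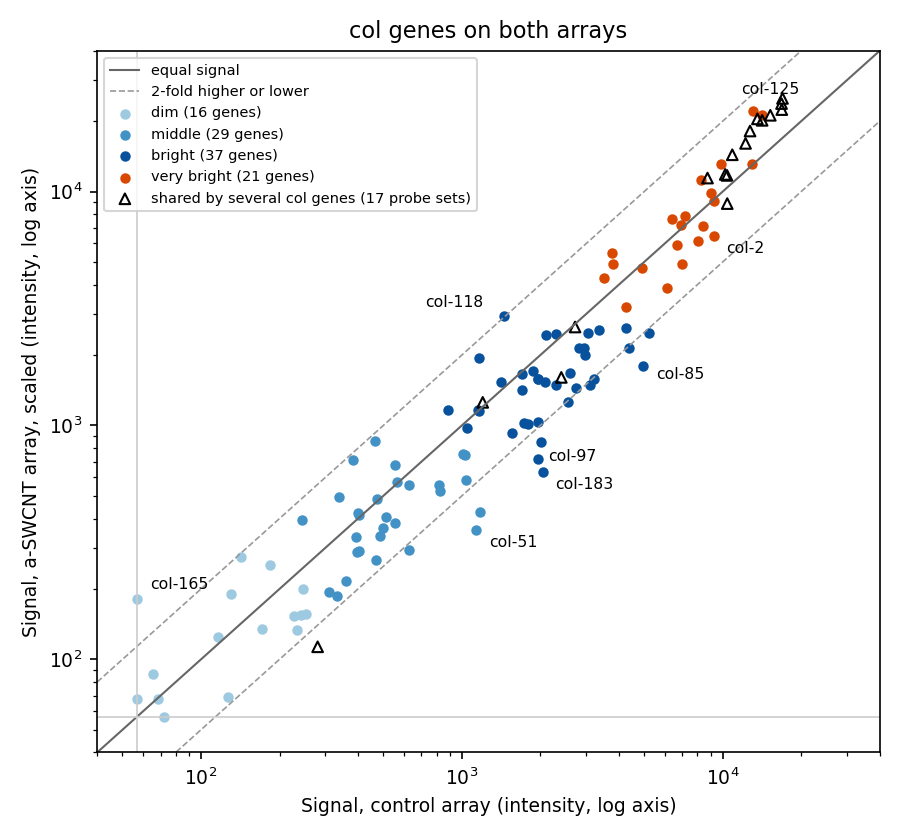
Signal of each measured col gene on the a-SWCNT array (vertical, scaled) against the control array (horizontal), both as intensity on log axes, with the probe sets shared by several col genes as triangles. The grey lines mark the floor of 56.7, and 12 genes lie on or below the lower dashed line of a 2-fold difference, beside 2 above the upper one.

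The split of calls depended on the scaling between arrays. Beside 12 lower and 2 higher with equal trimmed means, equalising the medians gave 8 lower and 3 higher, or 7.77% and 2.91%, beside 2.20% and 1.93% of all measured genes. Equalising the 75th percentiles gave 6 lower and 5 higher, or 5.83% and 4.85%, beside 1.78% and 2.31%. Equalising the hybridisation controls gave 17 lower and 1 higher, or 16.5% and 0.971%, beside 4.94% and 0.788%. Quantile normalisation and loess each gave 14 lower and 2 higher, or 13.6% and 1.94%, beside 2.05% and 1.91% with quantile and 2.25% and 1.82% with loess. The median of all genes was moved to 0.09 by equal 75th percentiles and to -0.18 by equal hybridisation controls, and the col median stood at -0.21 and -0.49 in them. These 2 scalings multiply 1 array by 1 factor, so both medians shift together and the distance between them is nearly fixed in advance. Quantile normalisation and loess can change that distance. The col median was -0.37 beside 0.05 for all genes with quantile, and -0.42 beside 0.02 with loess. Ranks within each array, which no single factor can change, gave the same direction. The median percentile of the 111 measured col probe sets among all worm probe sets was 93.3 on the a-SWCNT array and 95.3 on the control array. A lower rank on the a-SWCNT array was found for 77 of them, or 69.4%, beside 47.2% of all measured probe sets of 1 gene. The median change in percentile was -0.73 for the 111, beside 0.19 for all measured probe sets of 1 gene.

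The lowest ratio belonged to col-183, with a signal of 631 on the a-SWCNT array and 2038 on the control array, a 3.23-fold difference. Next was col-51, at 357 in a-SWCNT worms and 1137 in control worms, 3.18-fold lower. Its neighbour col-50 had 428 in a-SWCNT worms and 1175 in control worms. Of the brighter probe sets among them, that of col-85 had 1794 in a-SWCNT worms against 4967 in control worms, and that of col-37 had 2473 in a-SWCNT worms against 5237 in control worms. These 5 genes were all clearly above the floor on both arrays. Among the 8 lowest were also col-97 (-1.44), col-95 (-1.24) and col-72 (-1.10). The calls of col-38 (-1.03), col-139 (-1.06), col-122 (-1.03) and col-80 (-1.02) completed the 12, with col-139 and col-122 named after their values were seen. In 6 of the 12 the difference stayed at 2-fold or more with each of the 6 scalings other than as deposited: col-183, col-51, col-85, col-50, col-97 and col-95. The other 6 crossed the line in at least 1 of these scalings.

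On the higher side, col-165 stood out at a log2 ratio of 1.67, from a dim probe set with 181 on the a-SWCNT array and 56.9 on the control array. The control value lies just above the floor, so its fold depends on where the floor is set. The other gene past 2-fold was col-118, with 2945 in a-SWCNT worms and 1455 in control worms. Its ratio ranged from 0.85 to 1.15 over the other scalings. Next came col-101 (0.94), col-180 (0.89), col-149 (0.88), col-125 (0.75), col-90 (0.75) and col-54 (0.69). Of these, col-125 had one of the brightest probe sets, with 22123 in a-SWCNT worms and 13114 in control worms, and its ratio was 0.23 after quantile normalisation. A second probe set of col-149 was below the floor on both arrays and does not enter its ratio. The raised genes thus covered signals from near the floor to the top of the range.

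**Figure D2:**
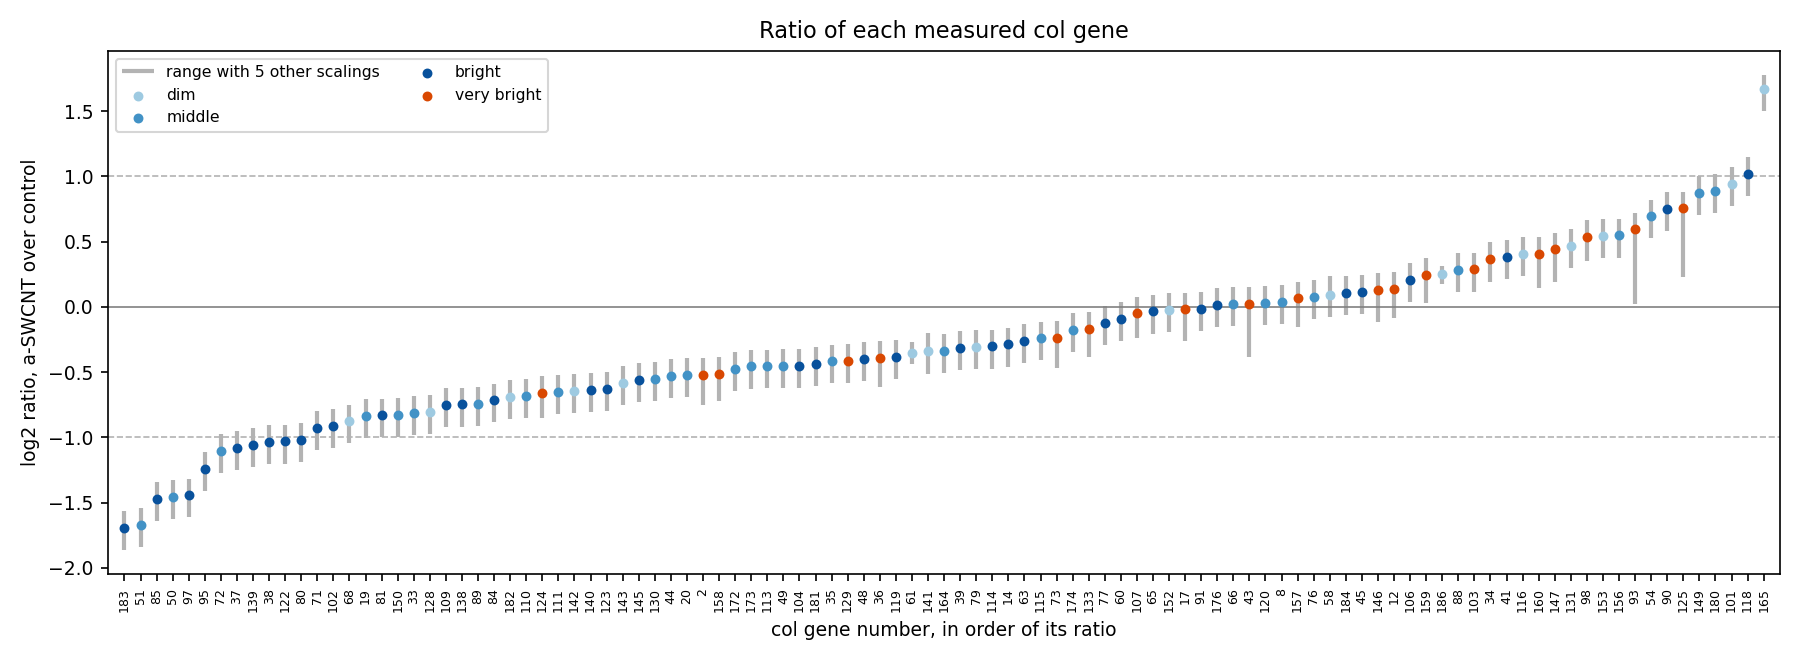
Log2 ratio of a-SWCNT over control for each of the 103 measured col genes (horizontal axis, gene number in order of ratio), coloured by brightness class, with the range over 5 other scalings as grey bars. Ratios run from -1.69 for col-183 to 1.67 for col-165, and 19 genes change sign between scalings, among them none of the 12 lowest.

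The members spanned a wide range of signal, and their ratio differed with it. Genes were put in classes by the geometric mean of both arrays: dim below 227, middle below 907, bright below 3630 and very bright above that. Each class edge is 4 times the one below it, beginning at the floor. The 37 bright col genes had a median of -0.45 (interval over genes -0.75 to -0.29), beside 0.15 for all 908 bright genes. In this class 30 of the 37 were below 0, or 81.1%, beside 39% of all bright genes, and 9 were at least 2-fold lower, or 24.3%, beside 3.3%. The 1 bright gene at least 2-fold higher, col-118, was 2.70% of the class, beside 2.2%. The 29 middle col genes had a median of -0.46 (-0.65 to 0.02), beside -0.01 for all genes of the class. Below 0 were 20 of the 29, or 69.0%, beside 50.6%. Here 3 were at least 2-fold lower, or 10.3%, beside 2.78%, and 0 were 2-fold higher, beside 1.79%.

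The 16 dim col genes had a median of -0.16 (-0.65 to 0.47) beside -0.07 for all dim genes, with 9 below 0, or 56.2%, beside 56.6%. Of the dim genes 0 were 2-fold lower, beside 2.98%, and 1, col-165, was 2-fold higher, or 6.25%, beside 1.13%. The 21 very bright col genes had a median of 0.07 (-0.24 to 0.37) beside 0.25 for all very bright genes. Of these, 9 were below 0, or 42.9%, beside 21.9%, and 0 were 2-fold lower or higher, beside 0.353% lower and 1.06% higher. All 12 genes at least 2-fold lower were therefore of middle or bright signal. No test between the classes was possible with 1 array per group.

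**Figure D3:**
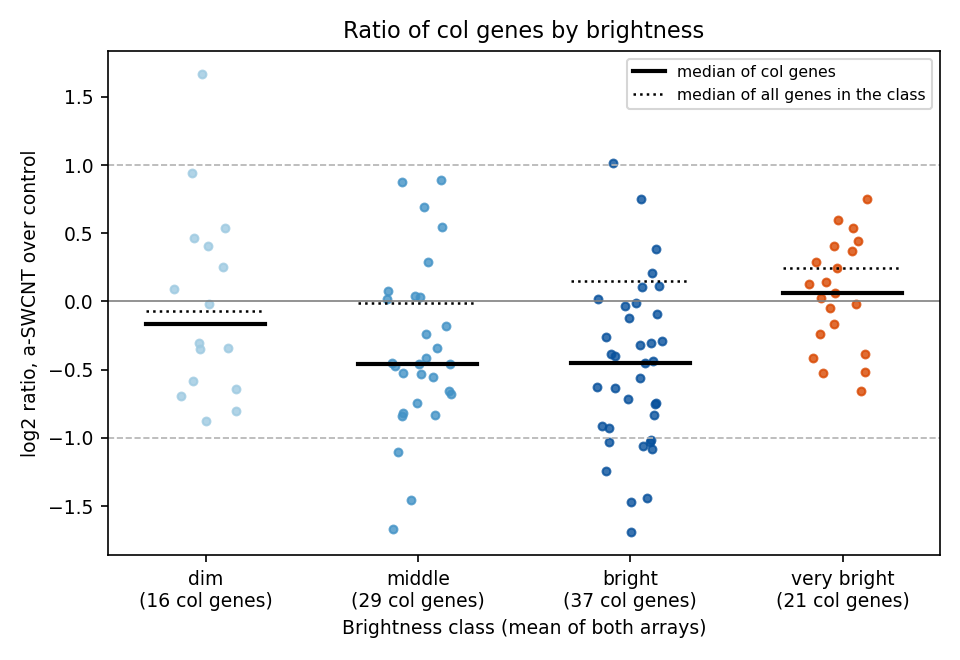
Log2 ratio of a-SWCNT over control of each measured col gene (points) by brightness class, with the median of the col genes (solid bar) and of all measured genes of that class (dotted bar). Dashed lines mark 2-fold; the medians of the middle and bright col genes are -0.46 and -0.45, while that of the very bright ones is 0.07.

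All measured genes together had a higher ratio the brighter they were, which bears on the very bright class. The distance of the col median from that of all genes was -0.09 in the dim, -0.45 in the middle, -0.60 in the bright and -0.18 in the very bright class. Under loess centring, which removes a trend of the ratio with signal, the medians of col genes were -0.09, -0.42, -0.58 and -0.16 in the same order. The sign of the very bright median was thus set by the scaling, and it was also negative after quantile normalisation (-0.04) and with equal hybridisation controls (-0.10). In each of the scalings shown, the middle and bright col genes lay below 0 and below all genes of their class.

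**Figure D4:**
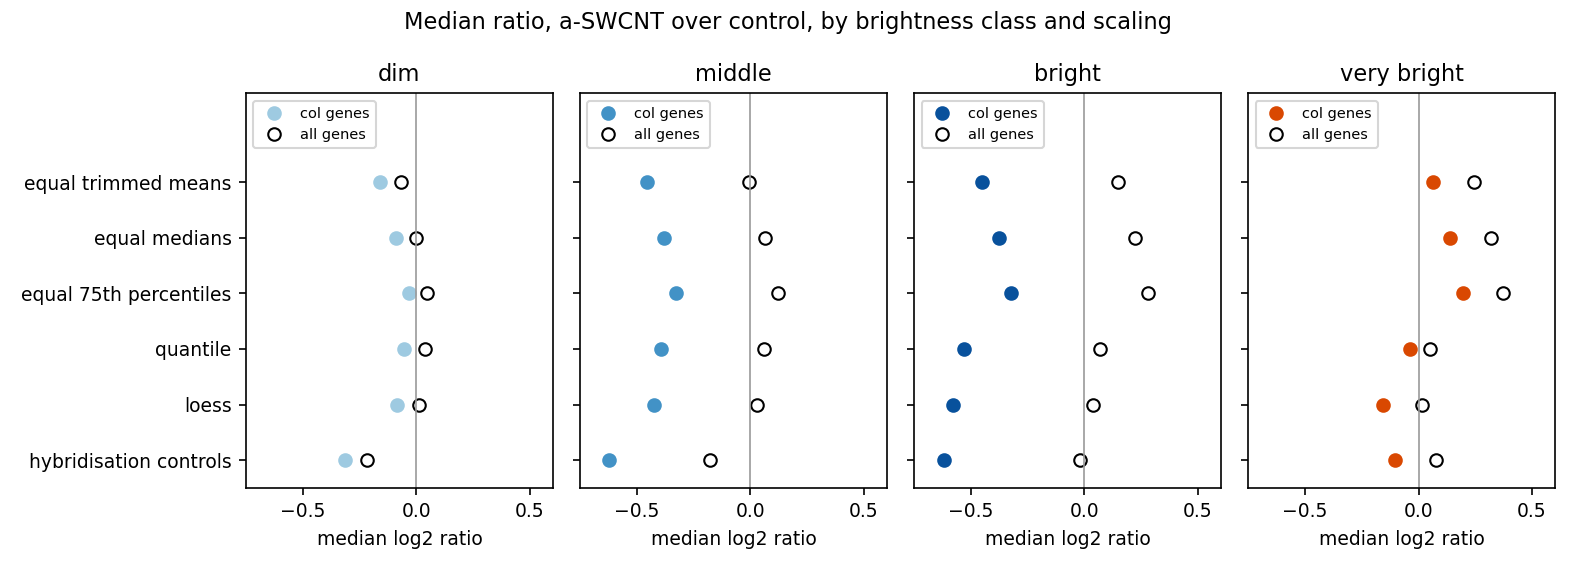
Median log2 ratio of a-SWCNT over control (horizontal axis) of col genes (filled) and of all measured genes (open) in each brightness class, for 6 scalings between the arrays (rows). The bright col genes lie between -0.62 and -0.32, while the very bright ones lie between -0.16 and 0.19 on both sides of 0.

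The very bright members include some of the brightest probe sets of the arrays, and signal is a property of the probe set as well as of the transcript. The 10 brightest col genes by the mean of both arrays were col-93, col-125, col-43, col-160, col-147, col-146, col-17, col-73, col-2 and col-12. The signal of col-93 was 21307 on the a-SWCNT array and 14110 on the control array (0.59, but 0.02 after quantile normalisation). For col-43 it was 13176 on the a-SWCNT array and 12963 on the control array, and for col-17 it was 9130 on the a-SWCNT array and 9252 on the control array, so these 2 genes were level. Above 0 were also col-160 (0.41), col-147 (0.44), col-146 (0.13) and col-12 (0.14), while col-73 (-0.24) and col-2 (-0.52) were below. The signs of col-43, col-17, col-146 and col-12 differed between scalings. Beside col-2, the lowest ratios of the class were those of col-124, with 3885 in a-SWCNT worms and 6133 in control worms, and col-158, with 4906 in a-SWCNT worms and 7010 in control worms, both named after their values were seen. The class was thus made of genes on both sides of 0.

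A further 17 probe sets were assigned to several col genes and were kept out of the counts above. They cover 23 genes, 20 of which have no probe set of their own. Most of them were extremely bright. The probe set for col-3 and col-117 had the highest signal of all worm probe sets on both arrays, with 25025 on the a-SWCNT array and 16954 on the control array. Those for col-10 and col-144 had 23778, 22411 and 21189 on the a-SWCNT array, against 16810, 16847 and 15222 on the control array. All of these were higher on the a-SWCNT array, by 1.33-fold to 1.48-fold. Both probe sets for col-92 and col-94 were higher, at 0.59 and 0.51, as were those for col-12 and col-13, at 0.21 and 0.39.

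Of the 17 shared probe sets 13 were above 0, or 76.5%, beside 78.1% of all very bright genes, and their median was 0.39. The exception in size was the probe set for col-126 and col-127, which was dim and had 113 on the a-SWCNT array and 280 on the control array, 2.47-fold lower. The single-gene probe sets of col-126 and col-127 were below the floor on both arrays. The probe set for col-178 and col-179 stood at -0.58, with 1605 in a-SWCNT worms and 2406 in control worms. Probe sets of similar brightness that do not belong to the family gave similar ratios at the top of the range. At a mean signal of at least 10000, 18 col probe sets, single-gene and shared, had a median of 0.45, beside 0.37 for 111 other worm probe sets. Above 0 were 100% of the 18, beside 92.8% of the 111. The part of signal brightness in the higher ratios of these collagens was not tested.

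Summed over the family, the share of signal depended on which collagen probe sets were counted. Single-gene col probe sets carried 3.70% of all worm signal on the a-SWCNT array and 3.999% on the control array. With the shared probe sets included, the share was 6.43% on the a-SWCNT array and 6.23% on the control array. Very bright col genes carried 2.67% and 2.48%, and the shared probe sets 2.73% and 2.23%, on the a-SWCNT and the control array. Bright col genes carried 0.839% on the a-SWCNT array against 1.26% on the control array, a ratio of 0.666, and middle ones 0.1604% against 0.223%, a ratio of 0.719. Other very bright worm probe sets carried 40.3% on the a-SWCNT array and 36.8% on the control array. The total over the single-gene probe sets was thus lower on the a-SWCNT array, by a ratio of 0.926 (0.821 without the 5 brightest), and it was higher, by 1.03, once the shared probe sets were added.

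**Figure D5:**
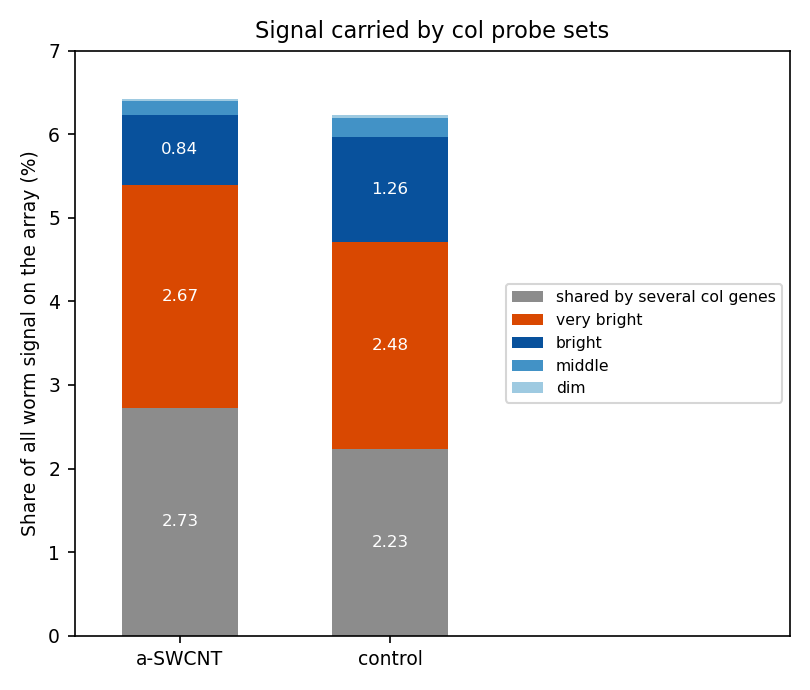
Share of all worm signal, in percent, carried by col probe sets on the a-SWCNT array (left) and the control array (right), stacked by brightness class and with the probe sets shared by several col genes at the base. The bright class takes 0.84% against 1.26%, while the very bright and the shared probe sets together take a larger share on the a-SWCNT array; genes below the floor, at 0.006% and 0.007%, are not drawn.

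Probe sets of the same gene gave a check from within the arrays. Of the 16 col genes with 2 probe sets, both were measured for 8, 1 for 3 and neither for 5. The ratios of the 8 differed by a median of 0.27, beside 0.42 over all 1625 genes with such a pair. They differed by more than 1 for 2 genes, or 25%, beside 14.2% of the 1625. For col-97, 1 probe set had 491 on the a-SWCNT array and 2250 on the control array (-2.20), while the other had 1051 on the a-SWCNT array and 1697 on the control array (-0.69). For col-72 the probe sets gave -1.61 and -0.59. Both probe sets of these genes were lower, so the direction was shared while the size was not. The probe sets of col-119 differed in level and ratio, with 648 in a-SWCNT worms against 1112 in control worms for 1 and 10132 in a-SWCNT worms against 10044 in control worms for the other. Close pairs were col-109 (-0.74 and -0.77), col-147 (0.51 and 0.37) and col-160 (0.50 and 0.32).

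Collagen transcripts resemble each other, and many probe sets of this array type carry a letter suffix that marks possible binding to several transcripts. Among the 111 measured col probe sets 52 had such a suffix, and among those of very bright signal 22 of 25. Of all 11469 measured probe sets of 1 gene, 4513 had a suffix. Of the very bright ones among these, 255 had a suffix and 129 had none. In the bright class the median was -0.63 over 15 probe sets with a suffix and -0.44 over 23 without. In the middle class it was -0.46 over 13 with and -0.45 over 19 without. Without suffixed probe sets, 58 genes were left, with a median of -0.34, and 9 were at least 2-fold lower, or 15.5%, beside 4.48% of all genes counted the same way. In the very bright class 3 genes were left, too few to describe the class by.

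Members with an established role were read by stage and function. The gene col-19, whose transcription marks the adult cuticle and follows the zinc finger factor LIN-29, had 582 on the a-SWCNT array and 1040 on the control array (-0.84). On the list of adult cuticle genes, col-63 had -0.26, and the probe set shared by col-7 and col-62 had 1255 in a-SWCNT worms and 1202 in control worms (0.06). The collagens bli-1 and bli-2, which form the struts of the adult cuticle, had -2.25 and -0.17. For bli-1 the signals were 106 in a-SWCNT worms and 502 in control worms. Each of the 4 genes of that list with a value had a negative ratio, beside 52.2% of all measured genes. Of these 4, bli-1 was the 1 at least 2-fold lower, or 25%, beside 2.88% of all genes. With 4 genes these shares are a description only. Summed over the probe sets of the list, the signal was 3096 on the a-SWCNT array and 4740 on the control array. The probe set of lin-29 had 116 in a-SWCNT worms and 132 in control worms.

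The collagen col-2, described as specific to the dauer larva, had 6449 on the a-SWCNT array and 9252 on the control array (-0.52). The other gene on the dauer list, col-40, did not reach the floor on either array. The probe set of col-2 has a letter suffix, and its binding to other collagen transcripts was not tested. Transcripts of col-12, a collagen of the hypodermis made late in the moulting cycle, had 7896 in a-SWCNT worms and 7161 in control worms. The genes col-10, col-13 and col-120 are known to be needed for the full life span of worms with reduced insulin signalling. The probe set of col-120 had 484.5 in a-SWCNT worms and 475 in control worms, and col-10 and col-13 were seen on shared probe sets alone. The gene col-41, a target of the BMP pathway that sets body size, had 1160 in a-SWCNT worms and 889 in control worms (0.38). The gene col-99 encodes a transmembrane collagen that is not part of the cuticle, and both of its probe sets were below the floor.

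The remaining genes fixed by name had ratios from -0.45 to 0.37. Values were -0.45 for col-49, -0.39 for col-36, -0.38 for col-119, -0.29 for col-14, 0.04 for col-8 and 0.37 for col-34. That of col-119 is the mean of probe sets at -0.78 and 0.01. The sign of col-8, like that of col-120, changed between scalings.

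Many col genes lie side by side in the genome, and 45 of those in the reference gene table formed 19 runs with no other protein-coding gene between them. In 7 runs, with 16 genes, every member was measured. On chromosome I, col-50 (-1.46) and col-51 (-1.67) were both more than 2-fold lower. On chromosome II, col-79 (-0.30), col-39 (-0.32) and col-80 (-1.02) were all below 0, as were col-17 (-0.02), col-20 (-0.52) and col-73 (-0.24), with col-17 of either sign between scalings. On chromosome V, col-141 (-0.34) and col-142 (-0.65) were both below 0, and col-159 (0.25) and col-160 (0.41) both above.

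Neighbours did not always go together. On chromosome V, col-149 had 856 in a-SWCNT worms and 466 in control worms, while the adjacent col-150 had 187 in a-SWCNT worms and 333 in control worms. The second probe set of either gene was below the floor on both arrays. On chromosome X, col-183 was the lowest member of the family, while col-184 next to it had 2467 in a-SWCNT worms and 2289 in control worms. Over the 9 adjacent measured pairs the ratios differed by a median of 0.30, from 0.01 to 1.80. On the same side of 0 lay 7 pairs, including col-17 and col-20, where col-17 was of either sign between scalings. The share of all pairs on the same side was not computed, and 68 of the 103 measured col genes were below 0. Over all 5253 pairs of measured col genes the median difference was 0.59. The adjacent pairs are few and share chromosomes, so these values are a description.

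The chromosomes, compared after the values were seen, held collagens of unlike ratios. On chromosome II, 15 of 16 measured col genes were below 0, or 93.8%, beside 50.8% of all measured genes there, and 4 were at least 2-fold lower, or 25%, beside 3.25%. Their median was -0.62, beside -0.01 for all genes of the chromosome. Below 0 lay 9 of 13 on chromosome I (background 53.6%), 4 of 9 on III (50.5%), 21 of 30 on IV (52%), 10 of 20 on V (53.6%) and 9 of 15 on X (52.2%). At least 2-fold lower were 2 on chromosome I (background 2.3%), 2 on III (1.93%), 1 on IV (2.75%), 2 on V (3.92%) and 1 on X (2.63%). The 4 of chromosome II were col-85, col-72, col-38 and col-80, and no test between chromosomes was possible.

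Collagens under other names, of the cuticle apart from mec-5 (0.97), were spread on both sides of 0. Of 22 such genes listed, 20 had a probe set of their own and all of these were measured, with a median of -0.08 and 11 below 0, or 55%, beside 52.2% of all measured genes. Those past 2-fold were bli-1 and rol-1 (-1.45) on the lower side, 10% of those measured beside 2.88% of all genes, and dpy-17 and dpy-14 on the higher side, 10% beside 1.42%. The control signal of dpy-14 was below the floor, so its 182.9 in a-SWCNT worms was at least 3.23-fold higher. For dpy-17 the signals were 259 in a-SWCNT worms and 71.6 in control worms (1.85). Among abundant members, dpy-13 had 12338 in a-SWCNT worms and 14110 in control worms (-0.19). Others were dpy-4 (-0.08), sqt-3 (-0.20), rol-8 (-0.47) and dpy-5 (0.15), beside a median of 0.25 for all very bright genes. Enzymes that fold, process or cross-link collagens had a median of -0.31 over 15 measured genes, with 11 below 0, or 73.3%, beside 52.2%, and 0 past 2-fold in either direction. The lowest were the protein disulphide isomerase gene pdi-2 (-0.73), the cyclophilin gene cyn-9 (-0.61, near the floor) and the collagen prolyl hydroxylase subunit gene phy-2 (-0.60).

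Regulators of the cuticle and of larval timing had a median of -0.13 over 15 measured genes, with 9 below 0, or 60%, beside 52.2%. Of these genes 2 were at least 2-fold lower, or 13.3%, beside 2.88%, and 0 higher, beside 1.42%. The lowered pair was blmp-1 (-1.44), a transcription factor of larval timing in the hypodermis, and lin-42 (-1.31), the period homologue that paces the moults. The signal of blmp-1 was 149.6 on the a-SWCNT array and 405 on the control array, and that of lin-42 was 57.6, just above the floor, on the a-SWCNT array and 143 on the control array. The gene of the moulting receptor, nhr-23, had 235 in a-SWCNT worms and 124 in control worms (0.93). Levels of the collagens follow the moulting cycle, and the timing of the cultures within L4 was not measured on the arrays. The part of timing in the collagen values was not tested.

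Markers of the labelled whole animal were present from each tissue looked at, and sums below are over all probe sets of a list. Of all measured genes 52.2% were below 0, and each list is too short for its count to be set firmly against that share. Hypodermal markers had 2 of 5 genes below 0, elt-3 (-0.74) and lin-26 (-0.61), and a summed signal of 11779 on the a-SWCNT array and 11421 on the control array. Most of that sum is col-12, itself a member of the family, and without it the sum was 3883 on the a-SWCNT array and 4259 on the control array. Most of what remains is dpy-7 (0.14) and rol-6 (0.18), which are cuticle collagens too. The hypodermal markers above 0 were thus all collagens, and elt-3 and lin-26, which are not, were both below 0. Muscle markers were below 0 in 4 of 4 cases, with a sum of 13767 on the a-SWCNT array and 19966 on the control array. Yolk genes were below 0 in 3 of 3 cases, with 1804 and 4190, and germline and oocyte markers in 2 of 4, with 1259 and 2412, on the a-SWCNT and the control array. Intestinal markers were below 0 in 2 of 4 cases, with 6109 on the a-SWCNT array and 4963 on the control array. Of the basement membrane list, emb-9 (-1.22) and let-2 (-0.15) were measured, while cle-1 and col-99 were below the floor. The part of these tissues in the collagen values was not tested.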

How the data were processed

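Labelled cRNA made from 6 ug of total RNA of worms was measured on Affymetrix arrays, per the labels' protocols. The values deposited by the authors are linear intensities, with 1 signal for each probe set. They were made with MAS5, per the submitters' processing notes; its version and target level are not given in the sources used here. Of 22625 probe sets, 77 were manufacturer's controls. They were part of the trimmed means and the quantile normalisation, and some of them set the scaling on hybridisation controls. They were left out of the floor, ratios, ranks and shares. Arrays were scaled to a common mean after trimming 2% at each end, signals were raised to a floor of 56.7, and log2 ratios were averaged over the probe sets of a gene.

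Gene symbols came from the platform annotation, and all 128 col genes were found by identifier in a reference table of the WBcel235 assembly, used for names, chromosomes and gene order. Protein sequences were not used here, so the protein comparisons planned were not made. The members, the gene lists and the classes were chosen with earlier results of these data known. Genes named were the 8 highest and 8 lowest measured on both arrays, the 10 brightest, those whose probe sets differ by more than 1, those in fully measured neighbouring runs, a set fixed by name (col-6 was not analysed here), and genes of the cuticle lists past 2-fold. No col gene measured on 1 array alone reached 2-fold. Others are described as examples or named after their values were seen. Intervals are order-statistic 95% intervals of a median over genes. Alternatives covered scaling, floor, fold threshold and probe set choice. The calculation was run on simulated data, made from the control array with small added noise and planted changes. That run checked the arithmetic only and says nothing about the error of the real arrays. Python 3.11.15, numpy 2.4.6, pandas 2.3.3, scipy 1.17.1 and statsmodels 0.14.6 (loess) were used.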

Additional observations from a re-analysis of the deposited data

How the results depend on the processing

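With 1 array per group the limits are those of 2 arrays: no error between cultures is known, the number of arrays limits the precision, and a change shared by most transcripts is lost by scaling. No paired analysis was possible because there was 1 array per group, and for the same reason no replicate could be left out. The col median lay between -0.49 and -0.21 with each alternative other than the values as deposited, and 61 of 103 genes were below 0 and 23 above 0 in each of 6 scalings. As deposited the median was -1.63 (all genes -1.16), with 83 genes at least 2-fold lower (79.0%, all genes 61.9%) and 0 higher, class medians of -0.99 (dim), -1.78 (middle), -1.77 (bright) and -1.28 (very bright), and col-118 at -0.31. With equal hybridisation controls the median was -0.49, and 1 gene was 2-fold higher. With equal 75th percentiles 6 were 2-fold lower and 5 higher, against 12 and 2. Classed by the brighter array, the dim median was 0.09 and the very bright one -0.02. The higher count was 5 with the floor at the 25th percentile (4.10%, all genes 3.97%) and 1 with it at the 75th (1.06%, all genes 1.38%). At 1.5-fold 31 were lower (30.1%, all genes 11.6%) and 9 higher (8.74%, all genes 8.04%), and at 3-fold 2 (1.94%, all genes 0.394%) and 1 (0.971%, all genes 0.213%). The family's share of signal, 0.926 of that on the control array, was 1.03 with the shared probe sets and 0.680 without the very bright class, the last chosen after seeing the data. The drop in median percentile, -1.79 over all 144 probe sets, was -6.20 without suffixed probe sets. The median change of a probe set in percentile was smaller, at -0.73 and -1.40 in the same order. The cause of these shifts was not tested. Of 216 values of 36 named genes under other scalings, all 36 as deposited moved by more than 0.42, and 2 with quantile normalisation (col-93 and col-125).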

Other observations

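The collagen col-2, described in C. elegans as a dauer collagen, was among the 10 brightest members on arrays of worms labelled L4, while col-40 of the dauer list was below the floor. Among the 50 brightest worm probe sets, 11 on the a-SWCNT array and 12 on the control array belonged to the family, the shared ones included.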
